A study of Rattus norvegicus with 8 samples.

Results

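The comparison described here sets rats with colitis on a diet rich in α-linolenic acid (ALA, the plant n-3 fatty acid) against rats with colitis on a fish oil diet, rich in the marine n-3 fatty acids eicosapentaenoic acid (EPA) and docosahexaenoic acid (DHA). Its samples were chosen by their titles, as 2 ALA and 2 fish oil colon arrays of the 8 arrays in the series. All 30367 non-control probes were considered, and 18171 genes could be tested. The question was how the colon under a plant n-3 diet differed from the colon under a marine n-3 diet when both were inflamed. No gene passed the test over all genes. The sizes below therefore describe 4 arrays, and the gene lists with the largest medians were B cell and cell cycle genes, higher on the ALA arrays, and colonocyte and nerve genes, higher on the fish oil arrays. Many B cell genes were too dim to be measured on the fish oil arrays.

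ALA is an essential fatty acid that mammals lengthen and desaturate only in part to EPA and DHA, through desaturases (Fads1, Fads2) and elongases (Elovl2, Elovl5). EPA and DHA compete with the n-6 fatty acid arachidonic acid for the enzymes that make prostaglandins and leukotrienes, act on receptors such as Ffar4, and activate the lipid-sensing PPAR nuclear receptors. Dextran sulfate sodium (DSS) in drinking water damages the colonic epithelium and is a widely used chemical model of colitis. The colon wall also holds lymphoid follicles, in which B cells gather around the chemokine Cxcl13 and enter from the blood through venules that carry Madcam1.

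All animals were female Wistar rats of 14 weeks. The ALA and fish oil groups had 10 rats each, were fed their diet for 8 weeks and received 5% DSS for 7 days. The n-6 colitis group (10 rats, sunflower oil, the same DSS) and the healthy group (6 rats, sunflower oil, no DSS) entered the fit and are given beside the results. RNA of 6 rats was pooled for hybridisation, and each group had 2 arrays, so that both healthy arrays hold the same rats and any 2 pools of a colitis group share some. Whether both arrays of a diet carried the same pool or different pools is not given, so the p-values measure the spread between arrays, which may be technical. The part of the colon that was sampled is not given, and DSS colitis is a model of chemical injury. Colon genes were bright on all 8 arrays: Lypd8, a protein of the colonic mucus layer, read 8.25 to 10.22, the mucin Muc2 read 4.20 to 5.35 and the smooth muscle actin Actg2 read 7.91 to 8.91. These levels, like all levels below, are the log2 scanner signal minus the 75th percentile of the array, so that 0 is the brightness of the spot at the 75th percentile and a difference of 1 is a 2-fold ratio.

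The arrays differed in brightness, and their small number limits the precision of every value. Fish oil replicate 1 was the dimmest of the 8, with a 75th percentile of 175 intensity units against 441 and 539 on the ALA arrays, 508 on fish oil replicate 2 and 393 to 693 on the other 4. On that array 59.5% of the spots were well above background, against 65.2% to 73.7% on the other 7. Genes well above background on both ALA arrays and on neither fish oil array numbered 1250, against 55 the other way round. For such genes the ratio is given as a bound. The bright group's mean was set against the dim arrays. Each dim array was taken at its own reading, or at its lowest level well above background where that was higher. For Mmp7 and Slurp2 the reading was the higher on both dim arrays, so the value given is the plain ratio. The bounds hold for the scanner's own background correction only. The ALA pair occupied another row of the 1 slide than the fish oil pair, so slide row and diet cannot be told apart. ALA replicate 1 correlated with ALA replicate 2 at r = 0.953 and with n-6 replicate 2 at 0.958. The fish oil pair correlated at 0.971, and fish oil replicate 2 correlated with the healthy arrays at 0.976 and 0.973.

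Of the 18171 genes, 0 (0.0%) differed at an adjusted p under 0.05 in limma's moderated test, and the smallest adjusted p was 0.306. Without adjustment 1745 genes had a p under 0.05, where the threshold alone gives 908.6. Of these, 1202 genes (6.61% of those tested) were higher in ALA colitis and 543 (2.99%) were higher in fish oil colitis. Both ALA arrays lay above both fish oil arrays for 4592 genes (25.3%), and the reverse held for 3707 (20.4%). Bright genes did not share the excess on the ALA side. Among the 14092 genes well above background on all 4 arrays, 356 were higher in ALA and 428 higher in fish oil at an unadjusted p under 0.05, and the groups did not overlap for 19.3% and 23.9%. With normexp background correction in place of the scanner's own correction the split was 329 to 371, with median centring 1177 to 870, and with quantile normalization 1235 to 900. Of 198 genes named by rule, normexp made the difference smaller by over 1.5 times for 75 and gave 27 the other sign, with a median ratio to the values printed below of 0.635. The median difference (ALA minus fish oil) over all genes was 0.015, and the median standard error of a difference was 0.422.

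**Figure D1:**
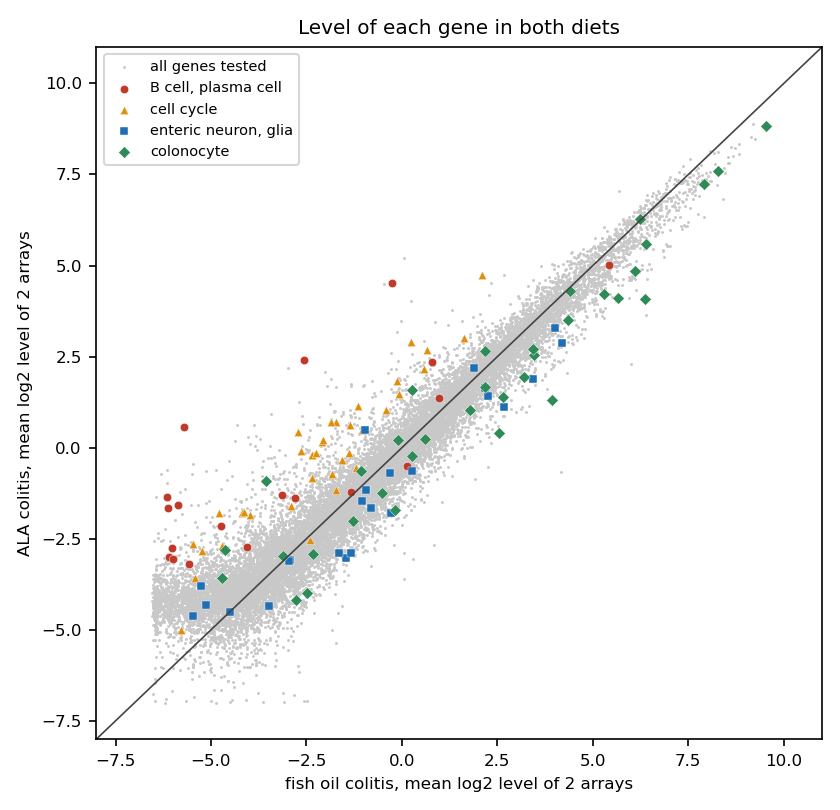
Mean log2 level of each of the 18171 genes in ALA colitis (vertical axis) against fish oil colitis (horizontal axis), each over 2 arrays and relative to the array's 75th percentile; grey points are all genes, coloured points are 4 of the gene lists, and the line marks equal levels. B cell and cell cycle genes sit above the line, most colonocyte and nerve genes sit on or below it, and the dimmest fish oil genes lie above the line as a whole.

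The 43 gene lists described below were compared through the median difference of their tested members and through how many members had non-overlapping arrays. The medians of 23 lists were above 0 and those of 20 below it, 29 of them between -0.5 and 0.5. A median of at least 1 was found for 4 lists: B cell and plasma cell genes (2.58), cell cycle genes (2.02), skeletal muscle genes (1.27) and CXC chemokines with their receptors (1.04). At the other end stood colonocyte genes (-0.72), enteric neuron and glia genes (-0.63), enteroendocrine genes (-0.62) and tight junction and adhesion genes (-0.58). Over the members well above background on all 4 arrays, the largest medians were those of cell cycle (1.96), skeletal muscle (1.23), CXC chemokine (1.04) and B cell genes (0.97). With normexp they were those of cell cycle (1.12), CXC chemokine (0.64) and B cell genes (0.59), where the median of all genes was -0.18. In bulk tissue, fewer cells of a type and less RNA per cell cannot be told apart.

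**Figure D2:**
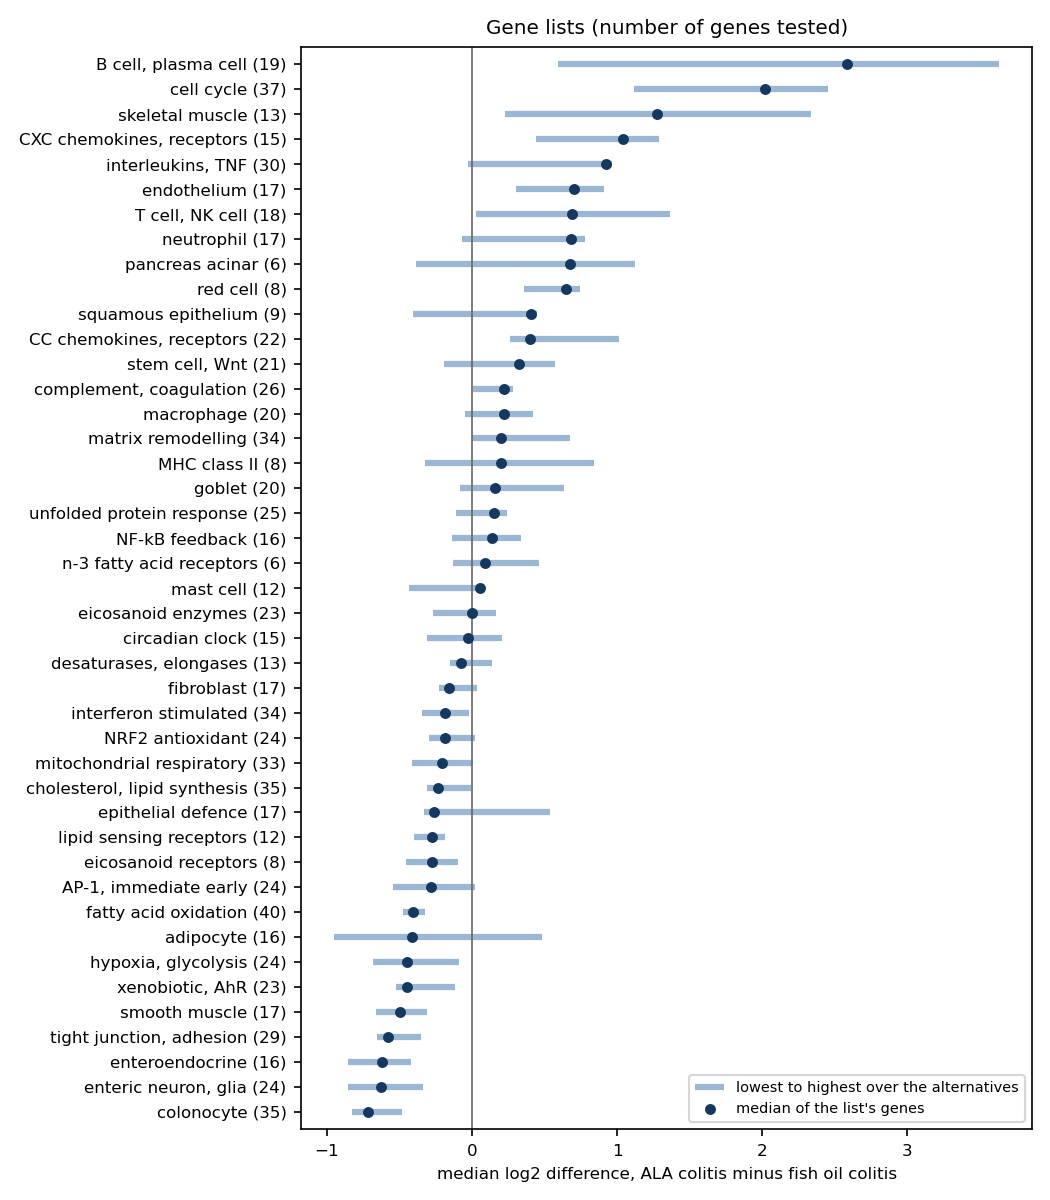
Median log2 difference (ALA colitis minus fish oil colitis) of each of the 43 gene lists, with the number of genes tested in brackets; bars run from the lowest to the highest median over the alternative settings. B cell and cell cycle genes stand at the top (2.58 and 2.02) and colonocyte genes at the bottom (-0.72).

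B cell genes had the largest median of the 43 lists, a place they did not keep among bright genes or with normexp. Of 23 B cell and plasma cell genes 19 were tested. At an unadjusted p under 0.05, 8 were higher in ALA colitis, against 6.61% of all genes. None was higher in fish oil colitis at that threshold, against 2.99% of all genes. The arrays did not overlap for 15 members higher in ALA, against 25.3% of all genes, and for 1 higher in fish oil. Of the 19, 9 were measured on the ALA arrays only. Among the 8 members well above background on all 4 arrays, 4 did not overlap and were higher in ALA, against 19.3% of such genes. The reverse held for 1, against 23.9%. Of these 8, 3 had an unadjusted p under 0.05, each higher in ALA, against 356 of all 14092 such genes. Cd79b, which carries the signal of the B cell receptor, read -0.71 and 1.83 on the ALA arrays and -4.46 and -6.98 on the fish oil arrays. It was not well above background on either fish oil array, which makes the ratio at least 55.1-fold (adjusted p = 0.476, limma), and the difference under normexp was 2.66. Pou2af1, a coactivator of B cells, read 3.85 and 5.18 against 0.56 and -1.06, a difference of 4.76 (SE 1.41). A second Pou2af1 probe gave a difference of 1.63 (SE 0.72), and the same fit to the authors' deposited table gave 1.19. Both ALA arrays were above both fish oil arrays for Cd79b and Pou2af1, and the second ALA array was the higher.

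Other B cell surface genes lay the same way and were below background on both fish oil arrays. Ms4a1, which encodes CD20, was at least 13.3-fold higher in ALA colitis, the receptor component Cd79a at least 12.8-fold and the complement receptor Cr2, found on B cells and follicular dendritic cells, at least 15.9-fold. With normexp the difference of Cr2 was 1.31. Genes of plasma cells were divided. Mzb1 was at least 4.90-fold higher in ALA colitis, and Tnfrsf17 differed by 1.41 (SE 0.85). Xbp1, needed for antibody secretion, differed by 0.38 (SE 0.29), Prdm1, which directs plasma cell formation, by 0.12 (SE 0.34), and Sdc1, which epithelium also expresses, by -0.40 (SE 0.37). Pax5, the factor that fixes B cell identity, read -0.33 and -0.68 on the ALA arrays and 0.65 and -0.38 on the fish oil arrays, and did not follow the other B cell genes. The median of the list was 0.59 with normexp background correction, and 0.97 over the 8 members well above background on all 4 arrays.

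The n-6 and healthy arrays place these levels. On n-6 replicate 1 the B cell genes were close to the ALA arrays and on n-6 replicate 2 closer to the fish oil arrays: Pou2af1 read 5.67 and 0.93, Cd79a -0.56 and -5.49. The median gap between the n-6 arrays was 2.38 over the 19 members, beside a median difference between the diets of 2.58. On the healthy arrays Pou2af1 read 0.46 and 0.13, near the fish oil arrays (0.56 and -1.06). Both healthy arrays lay below both ALA arrays for 12 of the 19 members, a count given without the share over all genes and not tested.

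**Figure D3:**
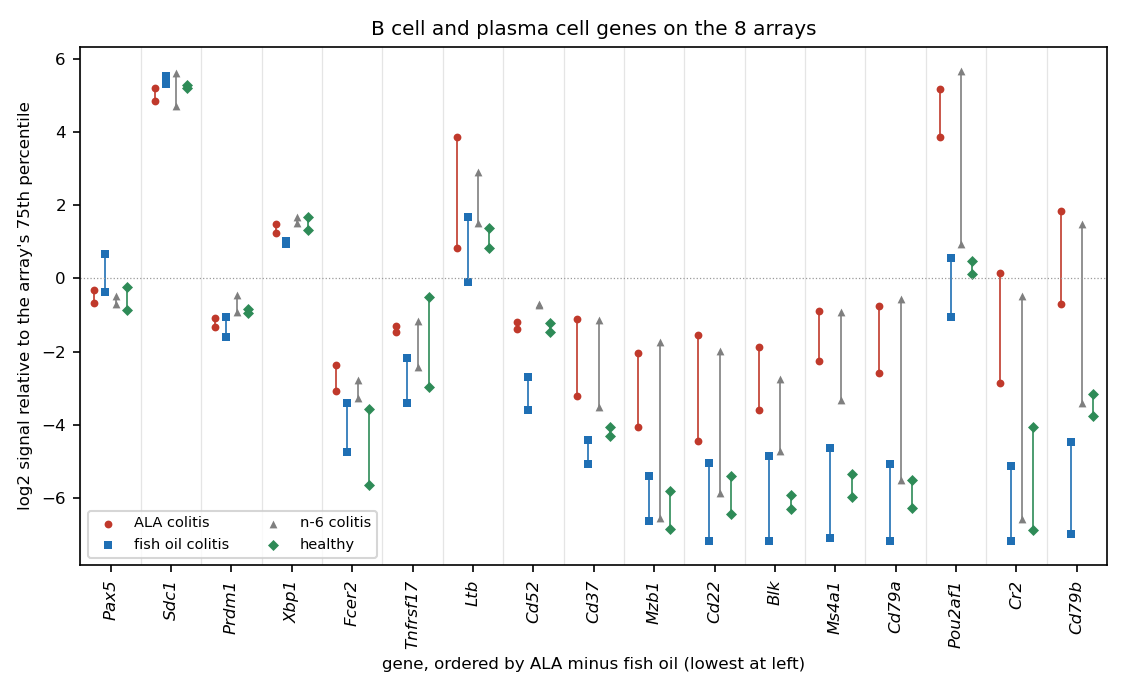
Log2 level (relative to the array's 75th percentile) of 17 of the 19 tested B cell and plasma cell genes, with 2 points per group joined by a line. For most genes at the right the ALA arrays lie above the fish oil arrays, and the n-6 pair spans both.

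Chemokine genes ranged widely. Of the 22 CC chemokines and receptors tested 8 had an unadjusted p under 0.05, each higher in ALA, against 6.61% of all genes, with a list median of 0.40. With normexp 3 of the 22 did, with a median of 0.26. Ccl19, a ligand that draws T cells and dendritic cells into lymphoid tissue, read 4.19 and 6.25 on the ALA arrays against 2.61 and -2.48 on the fish oil arrays, a difference of 5.16 (SE 1.95). The fish oil arrays were far apart, and without fish oil replicate 2 the difference was 2.61. Ccl21, which acts on the same receptor, read 3.14 and 4.21 against 2.77 and 1.31. Cxcl13, the B cell attractant of follicles, read 0.58 and 2.79 against -1.65 and -1.0, a difference of 3.0 (SE 1.43). Ccr6, a receptor on B cells and on some T helper cells, read 1.07 and 3.01 against 0.07 and -0.79, while its ligand Ccl20 differed by 0.22 (SE 0.63). Ccl17 and Ccl22, the ligands of Ccr4, differed by 3.60 (SE 1.04) and 2.52 (SE 0.58), or by 0.92 and 0.71 with normexp. Ccl17 was well above background on 1 fish oil array, and Ccl22 was well above background on all 4 arrays, at -2.01 and -1.33 against -3.83 and -4.56. The T cell and eosinophil attractants Ccl5 and Ccl11 differed by -0.99 (SE 0.77) and -0.22 (SE 0.94).

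Some vessel genes that let leukocytes enter tissue were higher on the ALA arrays. Madcam1, the mucosal addressin on high endothelial venules (rn4 chr7:11553234-11553293), read 0.41 and 0.92 against -2.76 and -1.67, a difference of 2.88 (SE 0.64), with normexp 1.76. Selp, P-selectin, read -0.18 and -0.07 against -2.15 and -2.76, with a difference of 1.34 under normexp, and Icam1 read 0.09 and 0.83 against -0.72 and -0.93. General endothelial genes were divided. Vwf and Kdr differed by 0.06 (SE 0.41) and 0.48 (SE 0.38). Pecam1, Esam and Nos3 differed by 0.71 (SE 0.42), 1.05 (SE 0.39) and 1.20 (SE 0.48). Cdh5, Emcn and Flt1 differed by -0.35 (SE 0.60), -0.23 (SE 0.45) and -0.07 (SE 0.66). In all, 17 endothelial genes were tested, 5 had an unadjusted p under 0.05 and were higher in ALA, against 6.61% of all genes, and the median was 0.71. With normexp 2 of the 17 did, and the median was 0.31. Selp was also high on n-6 replicate 1 (2.73) and low on both healthy arrays (-3.89 and -2.50).

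T cell genes gave a mixed picture. The 18 T and NK cell genes tested had a median of 0.69, or 0.03 with normexp. An unadjusted p under 0.05 was found for 5, each higher in ALA, against 6.61% of all genes, and for 1 with normexp. Of the 10 members well above background on all 4 arrays 0 had such a p. Among these 10, 3 did not overlap and were higher in ALA, against 19.3% of all such genes. The reverse held for 2, against 23.9%. The T cell receptor chains Cd3d and Cd3e differed by 0.62 (SE 0.43) and 0.73 (SE 0.48), with ALA replicate 2 above the other 3 arrays for both. Icos, a co-stimulator of follicular helper T cells, was at least 4.21-fold higher and Ctla4, a checkpoint receptor, at least 2.11-fold higher. Il7r, a survival receptor of lymphocytes, read -3.22 and -3.05 against -5.20 and -4.63. Izumo1r, a folate receptor relative of regulatory T cells, read 0.63 and -0.54 against -3.16 and -3.73, a difference of 3.49 (SE 0.45, adjusted p = 0.444, limma). Tnfrsf18, also known as GITR and carried by regulatory T cells, was at least 4.25-fold higher. Foxp3, the factor of those cells, read -2.03 and -2.27 against -1.04 and -1.98, a difference of -0.64 (SE 0.43). Cytotoxic granule genes were divided. Gzmb and Gzma differed by -0.29 (SE 0.97) and -0.18 (SE 0.92), while Prf1 differed by 1.775 (SE 0.50). Prf1 was well above background on 1 fish oil array. With normexp the differences of Izumo1r, Icos, Ctla4, Il7r and Tnfrsf18 were 1.80, 0.13, -0.16, 0.0014 and 0.084.

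Cell cycle genes lay almost all to one side. Of 39 listed genes 37 were tested. Both ALA arrays lay above both fish oil arrays for 34, against 25.3% of all genes, and the reverse held for 0, against 20.4%. An unadjusted p under 0.05 was found for 17, each higher in ALA, against 6.61% of all genes. Of the 27 members well above background on all 4 arrays, 24 did not overlap and were higher in ALA, against 19.3% of all such genes, with a median of 1.96. Mki67, the standard proliferation marker, read 2.17 and 3.17 on the ALA arrays and 0.42 and 0.91 on the fish oil arrays, a difference of 2.0 (SE 0.78). Rrm2, the ribonucleotide reductase subunit that supplies DNA precursors, read 5.31 and 4.16 against 1.56 and 2.64, a difference of 2.64 (SE 0.69, adjusted p = 0.476, limma). Tpx2, a spindle assembly factor, read -3.24 and -2.03 against -5.79 and -5.15, at least 4.88-fold, with a difference of 0.37 under normexp.

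Genes that act at different phases lay the same way. Among the licensing helicase subunits, Mcm3 differed by 2.67 (SE 0.96), Mcm5 by 2.39 (SE 1.07) and Mcm2 by 2.24 (SE 0.76). Among the mitotic cyclins, Ccnb1 differed by 2.56 (SE 1.0) and Ccnb2 by 2.98 (SE 1.38), and the kinase they activate, Cdk1, by 1.96 (SE 0.82). Top2a, the topoisomerase that untangles replicated DNA, read -0.35 and 1.22 against -3.54 and -1.93, a difference of 3.17 (SE 1.48). Top2a, Ccnb2 and Mcm5 were well above background on 1 of the 2 fish oil arrays. Tyms, thymidylate synthase, did not follow, at -2.94 and -2.10 against -2.13 and -2.70. Myc, a growth regulator listed with the stem cell genes, read 1.21 and 1.44 against 0.29 and -0.28.

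The count of cell cycle genes past the unadjusted threshold turned on single arrays, while the side did not. It was 3 without ALA replicate 2, 3 without fish oil replicate 1, 4 without fish oil replicate 2, 12 without ALA replicate 1 or a healthy array, and 33 without either n-6 array. The median stayed between 1.12 and 2.45 over all 19 alternatives. On n-6 replicate 1 each of the 37 genes was higher than on n-6 replicate 2, by a median gap of 2.54. N-6 replicate 2 lay below both ALA arrays for 36 of them. The healthy arrays lay in between: both were above both fish oil arrays for 35 of the 37 genes and below both ALA arrays for 27. Mki67 on the healthy arrays read 1.93 and 1.85. These orders are given as they stand, without the share over all genes beside them, and were not tested.

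**Figure D4:**
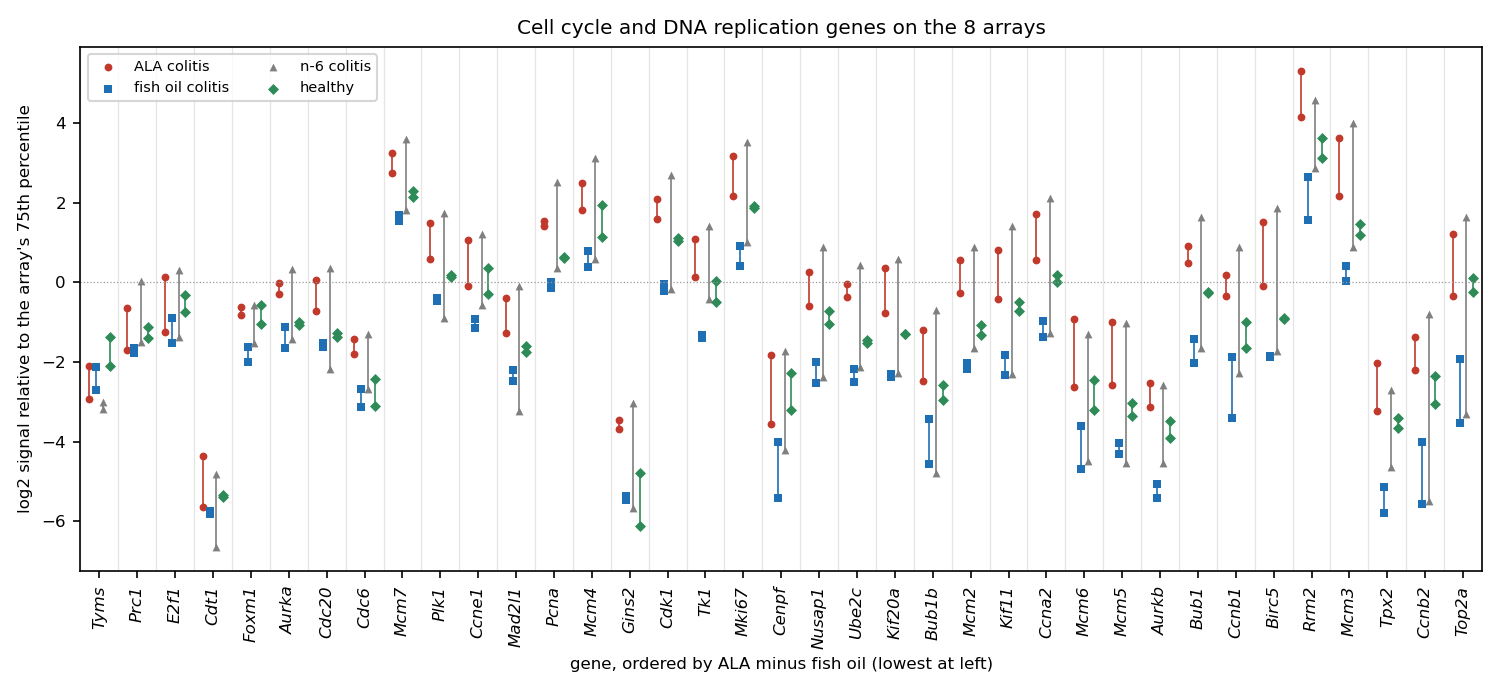
Log2 level (relative to the array's 75th percentile) of the 37 tested cell cycle genes, with 2 points per group joined by a line. Fish oil arrays lie lowest for most genes, healthy arrays in the middle and ALA arrays higher, while the n-6 pair spans the range.

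Promoters of many cell cycle genes carry CCAAT boxes, bound by the factor NF-Y, and a cell cycle homology region (CHR), through which repressor and activator complexes time transcription. The RefSeq promoter table (build GRCr8) held 28 of the 37 tested members. In the 250 bases before the annotated start, CCAAT was found on either strand in 19 of the 28, against 34% of all 33469 promoters of that length, and at least 2 copies were found in 14 of the 28, against 9.42%. The CHR letters TTTGAA or TTCGAA were found on either strand in 10 of the 28, against 17.4% of all promoters. CCAAT and CHR matches overlapped in 25 of all promoters. Such matches are letters and not shown sites. Of the 28 matched members, the windows of the 3 with the largest differences are printed to show how these letters lie before genes whose differences were on one side, 5′ to 3′ on the gene's strand, with CCAAT (or ATTGG) and CHR matches in capitals.
Top2a (chr10:84473094-84473343, minus strand): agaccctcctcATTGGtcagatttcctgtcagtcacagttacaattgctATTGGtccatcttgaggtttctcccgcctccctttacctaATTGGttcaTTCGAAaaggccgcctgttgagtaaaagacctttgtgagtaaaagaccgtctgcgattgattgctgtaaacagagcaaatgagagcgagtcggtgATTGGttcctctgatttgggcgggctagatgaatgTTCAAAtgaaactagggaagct
Ccnb2 (chr8:79981659-79981908, minus strand): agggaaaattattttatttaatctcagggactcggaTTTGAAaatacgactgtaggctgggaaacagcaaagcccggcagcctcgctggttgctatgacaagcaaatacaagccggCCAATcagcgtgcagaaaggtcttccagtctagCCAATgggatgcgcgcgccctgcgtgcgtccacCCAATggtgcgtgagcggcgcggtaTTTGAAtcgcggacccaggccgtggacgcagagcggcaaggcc
Mcm3 (chr9:30733747-30733996, minus strand): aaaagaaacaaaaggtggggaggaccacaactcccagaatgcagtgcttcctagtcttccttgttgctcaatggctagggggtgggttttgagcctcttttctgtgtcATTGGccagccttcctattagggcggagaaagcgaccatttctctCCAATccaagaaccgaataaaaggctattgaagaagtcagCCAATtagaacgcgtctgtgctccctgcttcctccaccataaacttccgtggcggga
Top2a held 4 CCAAT and 2 CHR matches, Ccnb2 held 3 and 2, and Mcm3 held 3 and 0. Mcm3 acts in replication licensing, Top2a and Ccnb2 later, up to mitosis.

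Inflammatory cytokines and their receptors differed less. Of 40 listed interleukin and TNF genes 30 were tested, 8 had an unadjusted p under 0.05 and were higher in ALA, 0 were higher in fish oil, and the arrays did not overlap for 15 higher in ALA and 0 higher in fish oil. The shares of all genes were 6.61%, 2.99%, 25.3% and 20.4%. Of the 17 members well above background on all 4 arrays 2 had an unadjusted p under 0.05 and 7 did not overlap, each higher in ALA. Over all genes so measured these were 356 of 14092 and 19.3%. With normexp 1 of the 30 tested had such a p. The list's median was 0.92, but -0.02 with normexp, and 6 members were above background only on the ALA arrays. Il1b, the main inflammasome cytokine, read 1.28 and 1.13 against 0.11 and -0.35, a difference of 1.33 (SE 0.54). Tnf read 0.59 and 1.34 against 0.42 and 0.06, and Il23a, which sustains inflammatory T helper cells, read -1.73 and -1.46 against -2.54 and -2.61. The antagonist Il1rn differed by 0.03 (SE 0.42) and the receptor Tnfrsf1a by -0.21 (SE 0.32). Il6, Il17a and Il13 did not pass the filter on dim probes. Among the neutrophil attractants, Cxcl2 read 2.82 and 0.63 against -0.32 and -1.66 and Cxcl1 read 1.19 and -2.01 against -2.70 and -3.96. For both, ALA replicate 1 was the highest of the 4 arrays. Neutrophil genes (17 tested) had a median of 0.68 and of -0.07 with normexp, and S100a9, a granule protein of neutrophils, differed by 0.04 (SE 0.77).

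Of 34 matrix genes 6 had an unadjusted p under 0.05, each higher in ALA, against 6.61% of all genes, and the median was 0.20. With normexp 0 of 34 did, with a median of 0.00. Of the 27 members well above background on all 4 arrays 2 did, against 356 of all 14092 such genes. The members with the largest differences were enzymes that degrade matrix. Mmp7, matrilysin, read -1.09 and -2.31 against -4.02 and -5.02, a plain ratio of 7.08-fold. It was not well above background on either fish oil array. Mmp12, the macrophage elastase, read -1.93 and -1.68 against -4.95 and -6.56, at least 11.6-fold, and Mmp10, a stromelysin, read -0.22 and -1.56 against -3.10 and -4.69. With normexp the differences of Mmp7, Mmp12 and Mmp10 were 0.69, 0.79 and 1.14. Other members differed by less. The collagen Col4a1 differed by -0.21 (SE 0.35), Fn1, fibronectin, by -0.46 (SE 0.45) and the protease inhibitor Timp1 by 0.17 (SE 0.44). Mmp10 and Mmp12 were also high on n-6 replicate 1, at 1.96 and -1.84, and lower on n-6 replicate 2, at -1.56 and -4.92.

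Macrophage genes went both ways. Cd68, a lysosomal marker, read 0.45 and 0.29 against -0.73 and -0.86, a difference of 1.17 (SE 0.33). Adgre1, a surface marker of mature macrophages, read -3.33 and -2.49 against -1.48 and -1.30, a difference of -1.52 (SE 0.44), and Siglec1, a sialic acid receptor of resident macrophages, read -2.79 and -2.14 against -1.20 and -1.49. The complement genes C1qa and C1qb, made by tissue macrophages, differed by 0.21 (SE 0.31) and 0.23 (SE 0.33). Of 20 members 3 were higher in ALA and 2 higher in fish oil at an unadjusted p under 0.05, against 6.61% and 2.99% of all genes. The median was 0.22. Complement and coagulation genes were as divided, with 3 and 3 of 26 against the same shares. Over members well above background on all 4 arrays, the macrophage counts were 1 higher in ALA and 2 higher in fish oil of 16. Those of complement and coagulation genes were 1 and 3 of 24. All such genes gave 356 and 428 of 14092. Cfb, factor B of the alternative pathway, read 2.76 and 2.95 against 5.26 and 3.73, and the clot-stabilising factor F13a1 read -3.50 and -3.19 against -1.27 and -2.36.

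Nerve genes had more members past the unadjusted threshold on the fish oil side than any other of the 43 lists. Of 26 enteric neuron and glia genes 24 were tested, 8 were higher in fish oil colitis at an unadjusted p under 0.05 and 1 was higher in ALA colitis, against 2.99% and 6.61% of all genes. The arrays did not overlap for 12 members higher in fish oil, against 20.4% of all genes, and for 3 higher in ALA. Tubb3, the neuronal tubulin (rn4 chr19:53751646-53751705), read 1.27 and 0.97 on the ALA arrays and 3.0 and 2.36 on the fish oil arrays, a difference of -1.56 (SE 0.40, adjusted p = 0.476, limma). Prph, the intermediate filament peripherin of peripheral neurons, read 2.03 and 1.76 against 3.68 and 3.16, a difference of -1.53 (SE 0.50). Uchl1, a ubiquitin hydrolase of neurons, read 3.25 and 2.47 against 4.37 and 4.03. The ALA arrays were below both fish oil arrays for all 3, and each was well above background on all 4 arrays.

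Further neuronal genes had differences close to these. The neurofilaments Nefl and Nefm differed by -1.56 (SE 0.57) and -1.52 (SE 0.54), Snap25, a protein of synaptic vesicle release, by -1.56 (SE 0.53), and Ret, the receptor that builds the enteric nervous system, by -1.27 (SE 0.44). Gap43, a growth cone protein outside the list, read -0.87 and -1.02 against 0.70 and 0.39. Transmitter genes did not share a side: Vip differed by 0.28 (SE 0.49), Chat by -0.14 (SE 0.47), Nos1 by 0.81 (SE 0.63) and Tac1 by -0.86 (SE 0.47). Among glial genes, Sox10 differed by -0.85 (SE 0.28), S100b by -0.38 (SE 0.44), and Gfap, below background on both fish oil arrays, was at least 2.75-fold higher in ALA. Averaging the probes of Snap25 gave -0.59. The count of nerve genes higher in fish oil was 8 with all arrays, 1 without fish oil replicate 1, 2 without ALA replicate 2 and 3 without fish oil replicate 2, and the list median lay between -0.85 and -0.34. Healthy levels of Tubb3 were 1.89 and 1.13 and n-6 levels 1.95 and 2.40.

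**Figure D5:**
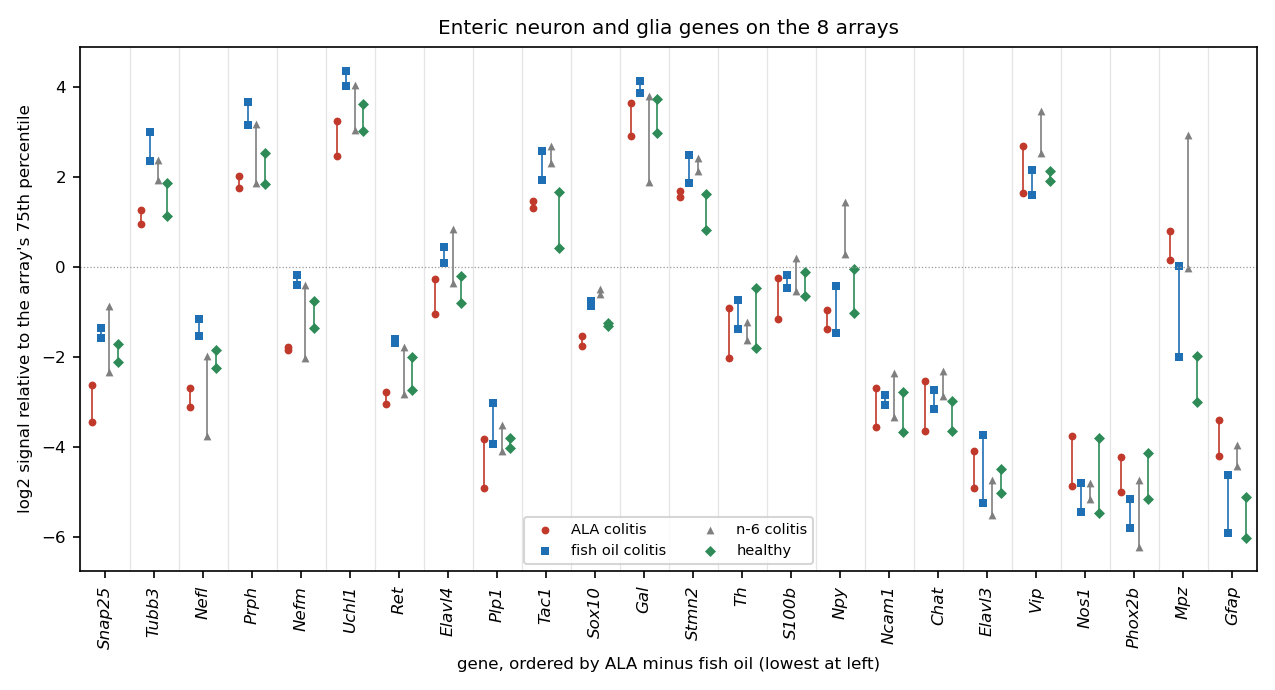
Log2 level (relative to the array's 75th percentile) of the 24 tested enteric neuron and glia genes, with 2 points per group joined by a line. The neuronal structure genes at the left have their fish oil arrays above their ALA arrays (Tubb3 3.0 and 2.36 against 1.27 and 0.97); genes at the right, such as Gfap, do not.

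Smooth muscle genes, which mark the muscle layers that hold these nerves, differed by less and to the same side. All 17 members were well above background on all 4 arrays. The arrays of 9 did not overlap and were higher in fish oil, against 23.9% of all such genes. For 1 they were higher in ALA, against 19.3%, and the median of the list was -0.49. Myh11, smooth muscle myosin, read 6.44 and 6.07 against 7.06 and 7.16, a difference of -0.85 (SE 0.34). Actg2 differed by -0.64 (SE 0.36) and Acta2 by -0.07 (SE 0.43). Svil, the actin-binding supervillin, read -1.25 and -1.96 against -0.28 and 0.05. The summed log2 level of the smooth muscle list was 9.27 and 9.16 on the ALA arrays and 9.89 and 9.76 on the fish oil arrays, and that of the nerve list 5.54 and 5.01 against 6.38 and 5.94. The part of the muscle layers in the nerve values was not tested.

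Junction and colonocyte genes leaned to fish oil by small amounts, while goblet cell, stem cell and squamous genes had medians of 0.16, 0.32 and 0.40. Over the members well above background on all 4 arrays, the latter medians were 0.28, 0.02 and -0.41. Of 29 tight junction and adhesion genes 18 did not overlap and were higher in fish oil, against 20.4% of all genes, and 2 were higher in ALA, with a median of -0.58 that lay between -0.65 and -0.35 over the alternatives. Only Ctnnb1, β-catenin, had an unadjusted p under 0.05, at -0.12 and 0.35 against 1.0 and 1.17. Epcam, the epithelial adhesion molecule, differed by -0.60 (SE 0.37), Cdh1, E-cadherin, by -0.49 (SE 0.41), Cldn3 by -0.46 (SE 0.53) and the scaffold Tjp1 by -0.21 (SE 0.40). Colonocyte genes had a median of -0.72, with 13 of 35 not overlapping and higher in fish oil, against 20.4% of all genes, 1 higher in ALA and none past the unadjusted threshold. Cdx2, the factor of intestinal identity, read 3.11 and 5.10 against 6.09 and 5.20. Muc2, the goblet cell mucin, differed by 0.26 (SE 0.43).

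Several epithelial genes differed more within a diet than between diets. The carbonic anhydrase Car1 read 1.41 and 6.77 on the ALA arrays and 7.38 and 5.36 on the fish oil arrays. The potassium pump subunit Atp12a read 6.98 and -6.57 on the ALA arrays, and the sodium channel subunits Scnn1b and Scnn1g read 0.14 and -5.73, and 3.24 and -5.04. The antimicrobial lectin Reg3b read -5.20 and 5.81 on the ALA arrays and 7.06 and -2.48 on the fish oil arrays, with Reg3g alike at -3.69 and 4.52 against 6.23 and -3.24. For these genes the gap within a diet was wider than the difference between diets. The skeletal muscle list also set ALA replicate 1 apart: all 13 tested members were higher there than on ALA replicate 2, and Myh1, a fast muscle myosin, read -0.36 and -4.75. The list's summed log2 level was 4.13 and 1.46 on the ALA arrays, 1.53 and 1.63 on the fish oil arrays, 4.70 and 1.64 on the n-6 arrays and 2.03 and 1.25 on the healthy arrays. Most of the sum on n-6 replicate 1 came from Tnnc2, which read 4.54 there, while Myh1 read -5.09 and Myl11 -3.06. With all arrays 6 of the 13 members were past the unadjusted threshold, each higher in ALA, against 6.61% of all genes. Of the 6 members well above background on all 4 arrays 2 were, against 356 of all 14092 such genes. Without ALA replicate 1 the list's median was 0.39.

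Fatty acid oxidation genes leaned to fish oil, with differences that were mostly small. Of 40 fatty acid oxidation genes tested, 1 was higher in ALA and 1 higher in fish oil at an unadjusted p under 0.05. The shares of all genes were 6.61% and 2.99%. The arrays did not overlap for 19 higher in fish oil, against 20.4% of all genes, and for 4 higher in ALA, with a median of -0.41 that lay between -0.48 and -0.32 over the alternatives. Acadm, the medium-chain acyl-CoA dehydrogenase, read 2.07 and 2.70 against 3.30 and 3.65, a difference of -1.09 (SE 0.39). Cpt1a, which admits fatty acids to mitochondria, read 0.03 and 0.60 against 0.99 and 1.57. Angptl4, an inhibitor of lipoprotein lipase and a PPAR target, went the other way, at 0.67 and 0.80 against -0.84 and -0.64, a difference of 1.48 (SE 0.48), and read 2.87 and 2.54 on the n-6 arrays.

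The desaturases and elongases that convert ALA to EPA and DHA had no unadjusted p under 0.05. Fads1 read -2.08 and -1.71 against -2.59 and -2.14, Fads2 differed by -0.21 (SE 0.61), Elovl5 by -0.28 (SE 0.49) and Elovl2 by -0.88 (SE 0.47). Elovl6, which lengthens saturated fatty acids, read 0.87 and 2.36 against 3.32 and 3.29, a difference of -1.68 (SE 0.79). Of the lipid-sensing receptors, Pparg read 1.32 and 3.30 against 3.33 and 3.50 and Ppard differed by -0.27 (SE 0.57). Ppara was above background only on the ALA arrays, at least 2.43-fold higher, but its difference was -0.18 with normexp. Cholesterol synthesis genes had a list median of -0.24 over 35 members. The cholesterol exporters Abca1 and Abcg1 were higher in ALA, by 0.95 (SE 0.37) and 0.93 (SE 0.32), or by 0.17 and 0.93 with normexp.

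The 23 eicosanoid enzymes tested had a median of 0.00, with 2 higher in ALA and 0 higher in fish oil at an unadjusted p under 0.05. The shares of all genes were 6.61% and 2.99%. The largest difference was that of Cyp4f1, a hydroxylase of leukotrienes and fatty acids, which read -4.10 and 2.78 on the ALA arrays and 4.29 and 4.04 on the fish oil arrays, a difference of -4.83 (SE 2.56). The ALA arrays were far apart, as were the n-6 arrays at -4.88 and 1.72. Ptges, the inducible prostaglandin E synthase, read -1.23 and -1.22 against -2.81 and -4.01, a difference of 2.19 (SE 0.71), or 0.75 with normexp. The inducible cyclooxygenase Ptgs2 did not pass the filter on dim probes. Ptgs1, the constitutive form, differed by -0.85 (SE 0.45), the lipoxygenase Alox5 by -0.02 (SE 0.60) and its partner Alox5ap by -0.56 (SE 0.31). Among the receptors for prostaglandin E2, Ptger2 differed by 0.00 (SE 0.31) and Ptger4 by -0.46 (SE 0.41). The probe of Ptger3 differed by -1.78 (SE 0.68), while a second probe, the one left when all 4 arrays had to be above background, gave 0.19. Of the receptors that respond to n-3 fatty acids or their products, Ffar4 read 1.64 and 1.06 against 1.22 and 1.33, and Cmklr1, a receptor for chemerin and a resolvin, differed by -0.35 (SE 0.29). Gpr18, a lymphocyte receptor linked to a DHA-derived resolvin, read -0.06 and 1.78 against -1.42 and -1.78, a difference of 2.46 (SE 0.73).

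Interferon-stimulated genes had a median of -0.18, with 0 of 34 past the unadjusted threshold either way, mitochondrial respiratory genes -0.21 (0 of 33), and unfolded protein response genes 0.15 (0 of 25). Hypoxia and glycolysis genes had a median of -0.45, with 10 of 24 not overlapping and higher in fish oil, against 23.9% of genes well above background on all 4 arrays as these were, and 0 higher in ALA. Ndrg1, a hypoxia target, read 1.5 and 2.46 against 3.39 and 3.4. Among NRF2 targets (median -0.19), Slc7a11, the cystine importer, was the exception, at 0.00 and -0.38 against -3.24 and -2.87, a difference of 2.87 (SE 0.73), or 1.46 with normexp. Red cell genes lay higher in ALA, with a median of 0.65 over 8 tested members, 6 of them not overlapping, against 25.3% of all genes, and 0 past the unadjusted threshold. Their summed log2 level was 3.93 and 3.98 on the ALA arrays, 3.41 and 3.43 on the fish oil arrays, 8.18 and 7.56 on the n-6 arrays and 3.09 and 2.90 on the healthy arrays. The part of blood in the other differences was not tested. The haemoglobin chain Hbb differed by 0.74 (SE 0.31), and by -0.74 in the same fit to the authors' deposited table. Hba-a1, another chain, read 2.96 and 2.87 in ALA, 2.60 and 2.44 in fish oil, and 7.06 and 6.50 in n-6 colitis.

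Further genes were named by a rule on size and order of p, and none passed the adjusted threshold. Among those well above background on all 4 arrays and higher in ALA were Slpi, the secretory leukocyte protease inhibitor, at 2.53 and 1.80 against -0.04 and -0.30, a difference of 2.33 (SE 0.50), and the homeobox gene Hhex, at 2.49 and 1.19 against -0.89 and -0.69. Klf2, a factor of resting lymphocytes and endothelium, read -1.22 and -1.19 against -2.68 and -3.11, and the protease inhibitor A2m, an acute phase protein of rats, read 0.29 and 2.12 against -1.48 and -2.27. Higher in fish oil were the natriuretic peptide receptor Npr1, at 0.66 and 1.58 against 3.19 and 3.10, and Lrig1, a marker of quiescent intestinal stem cells, at -2.33 and -2.54 against -1.35 and -1.11. The NK receptor Ly49i2 read -4.34 and -4.75 against -2.50 and -2.08, and its family holds near-identical copies, so its identity is uncertain.

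A few genes were measured in fish oil colitis alone. Slurp2, a secreted Ly6 protein of stratified epithelium (rn4 chr7:112857543-112857602), read -1.48 and -1.99 on the fish oil arrays and -4.89 and -5.85 on the ALA arrays. The plain ratio of these readings was 12.4-fold, higher in fish oil (adjusted p = 0.444, limma). Slurp2 was also dim on the n-6 arrays (-6.36 and -6.75) and on the healthy arrays (-6.86 and -6.40), and with normexp the difference was -1.37. The squamous epithelium list had a median of 0.40 over 9 genes tested, and of -0.41 over the 6 that were well above background on all 4 arrays. Hmmr, a mitotic spindle gene that is not in the cell cycle list, read -4.38 and -3.81 on the fish oil arrays and -6.62 and -7.23 on the ALA arrays, the opposite side from the 34 cell cycle genes above. The smallest p of all belonged to a probe without a gene symbol, ENSRNOT00000074975, at -2.52 and -2.61 in fish oil and -6.59 and -7.34 in ALA, at least 9.54-fold. With quantile normalization it was the one feature past the adjusted threshold (adjusted p = 0.0167, limma).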

How the data were processed

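RNA of rat colon was hybridised to 1-colour Agilent arrays. The authors' deposited scanner files hold spot intensity after background subtraction, from Feature Extraction 11.5.1.1 per the file headers, with outlier and background flags. The deposited value table holds log2 values whose scaling is not stated; each column's 75th percentile lies near 0 and its direction matches the scanner values. Levels were computed as log2 intensity minus the 75th percentile of each array, leaving out control and outlier spots and averaging repeated spots. Kept were 20801 of 30367 probes, those well above background in both samples of any group, and the brightest probe on average stood for its gene. Names came from the files' accessions and symbols through the RefSeq gene table, and 13178 of 18171 genes tested (72.5%) had a symbol. ALA and fish oil colitis were compared by limma (version 3.58.1, under R 4.3.3). The fit took 1 spread from all 8 arrays (4 residual and 3.016 prior degrees of freedom), and p-values were adjusted by Benjamini-Hochberg over all genes, at 0.05. The fitting was checked on simulated data.

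The lists and the comparison were chosen with earlier results of these data known. Named by rule were the 15 genes of smallest p on each side (difference of at least 1, above background on all 4 arrays, no overlap), the 6 of smallest p measured in 1 diet only, and up to 4 list members with the largest non-overlapping differences. Other list members were named as examples after their values were seen, as was the unnamed probe. Alternatives changed the background correction, scaling, filter, probe choice, arrays fitted, prior, replicate block and source table, and left out each array in turn. A few genes tested are not reported here by name, though list counts and medians include them.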

Additional observations from a re-analysis of the deposited data

How the results depend on the processing

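Counts of genes past the adjusted threshold were 0 under all alternatives except quantile normalization (1, an unnamed probe higher in fish oil colitis) and leaving out ALA replicate 1 (1, Ctu1, higher in fish oil colitis, adjusted p = 0.0366 by limma). The 1745 genes with an unadjusted p under 0.05 (1202 higher in ALA, 543 higher in fish oil) became 700 with normexp, of which 329 were higher in ALA, and 999 where all 4 arrays had to be above background, of which 458 were higher in ALA. Genes higher in fish oil numbered 870 with median centring and 900 with quantile normalization. Leaving out 1 array gave 0 to 1 genes past the adjusted threshold and 1092 to 2349 past the unadjusted one. Of the latter, 686 to 1558 were higher in ALA and 190 to 791 higher in fish oil. Both extremes on the fish oil side came from leaving out fish oil replicate 1 (190) or an n-6 array (791). The split was near even without ALA replicate 1 or fish oil replicate 2, and leaned further to ALA without ALA replicate 2 or fish oil replicate 1. The median difference over all genes was -0.064 without ALA replicate 1 and 0.106 without ALA replicate 2. It was 0.038 without fish oil replicate 1 and 0.012 without fish oil replicate 2. The fit with a replicate block called 0 genes after adjustment and 2211 before it. The labels do not say that replicate numbers pair the arrays, and deviations of same-numbered arrays correlated at -0.034. Of 43 lists 22, and of 198 named genes 168, kept the sign of their difference under every alternative. The cause of these changes was not tested. Dim genes limit the comparison, since fish oil replicate 1 had 59.5% of its spots well above background.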
